A study of Homo sapiens with 6 samples.

Results

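The ISG15 conjugation system was described in NCI-N87 cells, an established human gastric carcinoma line, by the transcript levels of 7 genes taken by name: ISG15, UBA7, UBE2L6, HERC5, HERC6, USP18 and ISG20. All 7 were found by symbol among the 58735 genes of the deposited table, of which 19951 are protein-coding. The study asked how expression changes when SCAMP1, a membrane protein of recycling vesicles, is silenced. RNA-seq was performed on 6 libraries, 3 of the group labelled shNC and 3 of the group labelled shScamp1, which the series' design text calls shCtrl and shS1#1. According to the study's methods, shNC cells carried the empty vector pSIH-H1-puro and shScamp1 cells carried the same vector with a single SCAMP1 shRNA. Both groups were exposed to lentivirus for 24 h and kept as puromycin-resistant populations (2 μg/ml). As the control expressed no shRNA and a single SCAMP1 shRNA was sequenced, loss of SCAMP1 and the presence of an shRNA cannot be told apart. The labels call the 3 libraries of a group biological replicates without stating that they came from separate infections, so p-values measure the spread between these samples, which may be technical.

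ISG15 is a small ubiquitin-like protein that cells make after exposure to interferon, and it is attached to lysines of other proteins by a dedicated enzyme chain. UBA7 is the activating enzyme (E1), UBE2L6 the conjugating enzyme (E2), and HERC5 the main ligase (E3) in human cells. HERC6 is a close relative of HERC5 and serves as the main ISG15 ligase in the mouse. USP18 removes ISG15 from its targets and, apart from that activity, restrains signalling by the type I interferon receptor. ISG20 is an interferon-induced exonuclease of single-stranded RNA. It shares the naming of ISG15 but is not an enzyme of the conjugation chain. Genes of this kind commonly carry a binding site for interferon-activated complexes that hold STAT2 and IRF9, or for other IRF proteins, in their promoters.

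Levels are given in FPKM, the number of fragments on a gene scaled to its length and to library size by the authors. SCAMP1, which the shRNA targets, measured 12.6, 12.1 and 11.5 FPKM in shNC replicates 1 to 3 and 1.70, 1.37 and 1.99 FPKM in shScamp1 replicates 1 to 3. The libraries held 15064905 to 15988700 reads on genes in shNC and 14311769 to 14667628 in shScamp1. Library shScamp1 replicate 2 stood apart from its group. Its mitochondrial share was 9.21% against 6.09% to 6.78% elsewhere, and its counts differed from its group mates with a chi-square per degree of freedom of 38.6 and 30.3, against 1.89 to 2.89 for all other pairs within a group. For the 6 members tested, the log2 fold change is also given without it. The 8 epithelial markers listed, EPCAM and the keratins among them, were all well above 0. Their summed levels were 5536 to 5822 FPKM in shNC and 9250 to 10164 FPKM in shScamp1. Of the 8, 6 rose at an adjusted p under 0.05 (limma), against 8.82% of all genes tested. Of 6 haematopoietic markers none exceeded 19 reads in any library, and their summed level was 0.440 to 0.736 FPKM in shNC and 0.517 to 0.718 FPKM in shScamp1. The 6 fibroblast markers summed to 0.533 to 0.689 and 0.487 to 0.773 FPKM, with COL1A2, DCN and LUM at 0 reads, and the 3 endothelial markers to 0.139 to 0.235 and 0.381 to 0.612 FPKM. The part of these markers in the results was not tested. As these are bulk samples, more RNA per cell and a larger share of cells with the transcript cannot be told apart.

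The promoters of the members were read because their transcripts were higher together in the shScamp1 libraries. RefSeq windows of 300 bases, from 250 before to 50 after each start on GRCh38.p14, were found for 5 of 7 members, with none used for USP18 or UBA7. Each was searched on both strands, with overlaps allowed, for the core of an interferon-stimulated response element written as GAAANNGAAA (TTTCNNTTTC on the other strand). This motif was present in 3.57% of all 35116 windows of the same length. It was found in the windows of ISG15, HERC5 and ISG20, and not in those of HERC6 and UBE2L6. The stretches around the matches, all from the plus strand with the matched bases in capitals, were chr1:1013374-1013409 for ISG15, chr4:88456984-88457064 for HERC5 and chr15:88638937-88638966 for ISG20.
ISG15: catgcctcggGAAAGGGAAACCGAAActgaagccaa
HERC5: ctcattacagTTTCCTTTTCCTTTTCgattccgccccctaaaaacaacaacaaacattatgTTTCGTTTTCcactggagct
ISG20: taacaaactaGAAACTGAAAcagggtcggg
ISG15 holds 2 overlapping matches, the first base at position -113 from the RefSeq start. HERC5 holds 3, of which 2 overlap, beginning at -125, and ISG20 holds 1 at -69. A match describes letters and not a bound site, and a window without one says nothing of the factors that act on the gene.

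In shScamp1 cells every one of the 7 transcripts was higher in all 3 libraries than in any shNC library. Such a separation upwards was seen in 20.4% of all genes tested, a set that holds 6 of these 7 and not UBA7. Of the 6 members that passed the filter (0.5 FPKM on average), ISG15, HERC6, USP18, ISG20 and UBE2L6 rose at an adjusted p under 0.05 (limma on log2(FPKM + 0.1), Benjamini-Hochberg over 15556 genes) and HERC5 did not pass. Of all genes tested, 14.0% passed in either direction and 8.82% were higher. With the additional threshold of a log2 fold change above 1, here called differential expression (the study's methods give the same fold threshold with a P that they do not describe as adjusted), ISG15 and HERC6 were called (2 of 6, against 2.42% of all genes in that direction). The median log2 fold change of the 6 was 0.92, and that of all genes tested was -0.02. UBA7 was below the filter and is described by its reads.

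**Figure D1:**
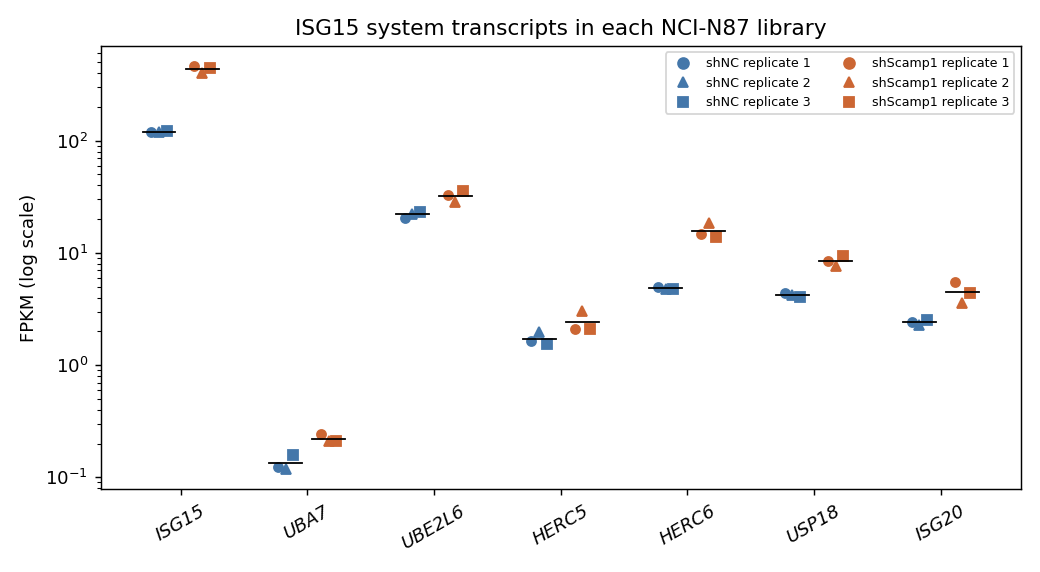
FPKM of the 7 genes (log axis) in each of the 3 shNC and 3 shScamp1 libraries, with black bars for the group means and a symbol for each replicate number. In every gene the 3 shScamp1 points lie above the 3 shNC points, and the genes span from 0.119 FPKM in UBA7 to 463 FPKM in ISG15.

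ISG15 (ENSG00000187608, chr1:1001138-1014540, plus strand, GENCODE 29 on GRCh38) encodes the modifier itself. It was at 119, 120 and 123 FPKM in shNC replicates 1 to 3 and at 463, 405 and 445 FPKM in shScamp1 replicates 1 to 3, from 1776 to 6357 reads per library. The shNC libraries lay within a few FPKM of each other, and the lowest shScamp1 library was above 3 times the highest of them. The mean rose from 121 ± 2.32 to 438 ± 29.4 FPKM (SD, n = 3 each), a 3.63-fold difference. The log2 fold change was 1.86 (standard error 0.08, 95% interval 1.67 to 2.05, adjusted p = 0.000168 by limma), and it was called under all 17 other settings tried, with values of 1.78 to 1.95 (1.91 without shScamp1 replicate 2). By mean FPKM the gene stood at rank 263 of the 58735 genes in shNC and at rank 56 in shScamp1. Overlapping antisense gene AL645608.1 held 3 to 8 reads, and the strand setting of the counting is not given in the sources used here.

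UBA7 (ENSG00000182179, chr3:49805207-49813946, minus strand) encodes the E1 that starts the chain. It was close to the limit of detection, with 9, 9 and 11 reads in shNC and 16, 13 and 14 reads in shScamp1, or 0.125, 0.119 and 0.157 FPKM against 0.241, 0.209 and 0.211 FPKM. All shScamp1 libraries were above all shNC libraries, on sums of 43 and 29 reads. When every gene with a read was tested, its log2 fold change was 0.46 (standard error 0.27, 95% interval -0.20 to 1.11, adjusted p = 0.456 by limma), so a difference was not detectable at this depth. In contrast, UBE2L6 (ENSG00000156587, chr11:57551656-57568284, minus strand), the E2 that receives ISG15 from UBA7, had the highest FPKM among the enzyme genes of the system.

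UBE2L6 was at 20.7, 22.2 and 23.4 FPKM in shNC and at 32.7, 28.4 and 36.0 FPKM in shScamp1, from 720 to 1156 reads. Library shScamp1 replicate 2 was the lowest of its group and still above each shNC library. The mean rose from 22.1 ± 1.35 to 32.3 ± 3.81 FPKM (SD, n = 3 each). On the log2 scale it rose by 0.54 (standard error 0.10, 95% interval 0.29 to 0.79, adjusted p = 0.0202 by limma). This call did not hold when a library other than shScamp1 replicate 2 was left out. The adjusted p was then 0.0919, 0.0858 and 0.0644 without shNC replicates 1, 2 and 3, and 0.0533 and 0.0651 without shScamp1 replicates 1 and 3, while without shScamp1 replicate 2 the log2 fold change was 0.64 and the adjusted p 0.00224.

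HERC5 and HERC6, the ligase genes, lie next to each other on the plus strand of chromosome 4, and they differed in response. HERC6 (ENSG00000138642, chr4:88378739-88443111) was at 5.02, 4.79 and 4.75 FPKM in shNC and at 14.8, 18.4 and 13.8 FPKM in shScamp1, from 425 to 1463 reads. Each shScamp1 library was thus more than 2 times above the highest shNC library. The mean rose from 4.85 ± 0.146 to 15.7 ± 2.43 FPKM (SD, n = 3 each), a 3.24-fold difference. On the log2 scale it rose by 1.66 (standard error 0.12, 95% interval 1.38 to 1.94, adjusted p = 0.000696 by limma). It was called under all 17 other settings, from 1.503 to 1.75 (1.54 without shScamp1 replicate 2). With HERC3, the neighbouring relative, HERC6 shared 0.804% of its 50-base exonic windows.

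HERC5 (ENSG00000138646, chr4:88457117-88506163), whose promoter carries 3 copies of the motif shown above, was at 1.65, 1.98 and 1.55 FPKM in shNC and at 2.11, 3.03 and 2.09 FPKM in shScamp1, from 114 to 198 reads. The highest shNC library was close to the lowest shScamp1 library, and shScamp1 replicate 2 was the highest of all. The means were 1.73 ± 0.223 and 2.41 ± 0.538 FPKM (SD, n = 3 each). The log2 fold change was 0.45 (standard error 0.18, 95% interval 0.02 to 0.88), with an adjusted p of 0.150 by limma, and 0.28 without shScamp1 replicate 2. No other setting called it, with adjusted p from 0.0990 to 0.350.

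USP18 (ENSG00000184979, chr22:18149899-18177397, plus strand), the ISG15 protease and feedback inhibitor, was at 4.41, 4.23 and 4.04 FPKM in shNC and at 8.43, 7.72 and 9.34 FPKM in shScamp1, from 133 to 291 reads. The groups were far apart relative to their spread. The mean rose from 4.23 ± 0.185 to 8.50 ± 0.813 FPKM (SD, n = 3 each), a 2.01-fold difference. Its log2 fold change of 0.99 (standard error 0.09, 95% interval 0.77 to 1.21, adjusted p = 0.00169 by limma) fell just short of the fold threshold, and was 1.05 without shScamp1 replicate 2. Of its 50-base windows, 23.4% also occur in USP41 or related copies, and USP41 held 0 to 4 reads per library, so the split of reads between the copies is uncertain.

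ISG20 (ENSG00000172183, chr15:88636153-88656483, plus strand) was at 2.42, 2.28 and 2.51 FPKM in shNC and at 5.46, 3.60 and 4.36 FPKM in shScamp1, from 280 to 587 reads. The shScamp1 libraries spread widely, with replicate 2 the lowest, but did not reach down to the shNC values. The mean rose from 2.40 ± 0.113 to 4.47 ± 0.934 FPKM (SD, n = 3 each). On the log2 scale it rose by 0.85 (standard error 0.15, 95% interval 0.48 to 1.22, adjusted p = 0.0170 by limma). The call was lost without shNC replicate 1, 2 or 3 (adjusted p = 0.0711, 0.0760 and 0.0663) and without shScamp1 replicate 3 (0.0631). It was kept without shScamp1 replicate 1 (0.0263) or replicate 2 (0.00256, with a log2 fold change of 0.99). Gene length in the table is 7363 bases for ISG20, the sum of all its exons, while its longest coding transcript has 1856, so its FPKM is low relative to that of genes with compact models such as ISG15 (941 and 787 bases).

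**Figure D2:**
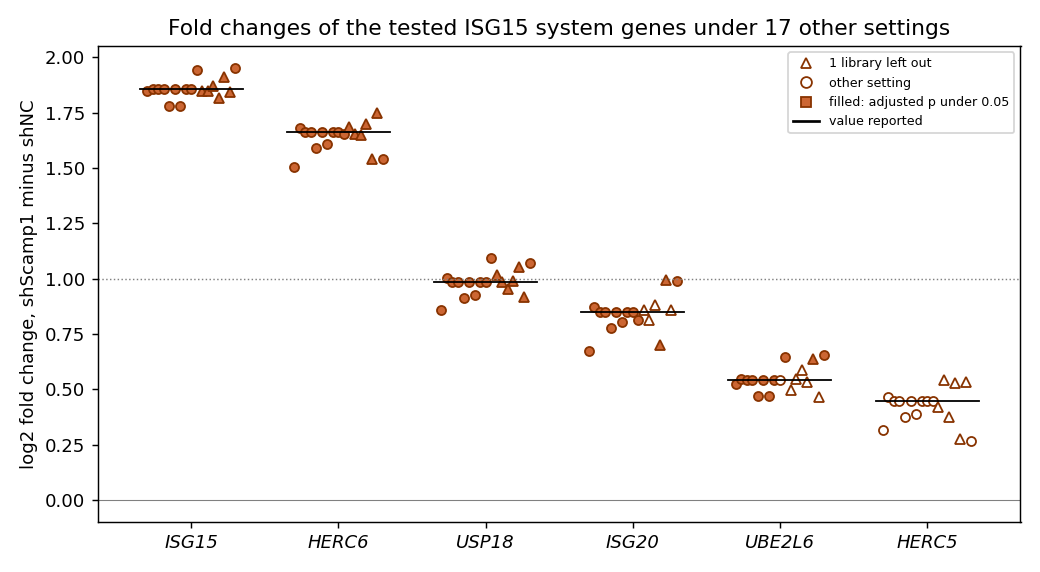
Log2 fold change (shScamp1 minus shNC) of the 6 tested genes under 17 other settings, filled where the adjusted p was under 0.05. Triangles mark settings in which leaving out 1 library was the only change. Circles mark the rest, among them removal of a gene-length trend without shScamp1 replicate 2. Horizontal bars mark the values reported. ISG15, HERC6 and USP18 are filled throughout, UBE2L6 and ISG20 lose the call in 6 and 4 settings, and HERC5 is open in all 17.

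The order of the members by mean FPKM, which is per gene length, was the same in both groups: ISG15, UBE2L6, HERC6, USP18, ISG20, HERC5 and UBA7. No neighbours in this order overlapped over the 3 libraries of a group. The 7 transcripts together came to 153 to 160 FPKM in shNC and 467 to 526 FPKM in shScamp1. ISG15 made up 77.1% to 77.6% of that sum in shNC and 86.8% to 87.9% in shScamp1.

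The level of each gene relative to ISG15 was measured as their log2 ratio within a library, (gene + 0.1)/(ISG15 + 0.1), which does not depend on the scaling of libraries other than through the 0.1. ISG15 had the largest log2 fold change of the tested members and is shared by all 6 ratios. Negative differences therefore follow from the fold changes given above, and the ratios are not independent of each other. The UBE2L6 ratio was -2.52, -2.42 and -2.39 in shNC and -3.82, -3.83 and -3.63 in shScamp1, a difference of -1.31 between the group means. The FPKM of ISG15 thus went from between 5.28 and 5.76 times that of the E2 to between 12.4 and 14.3 times. These multiples depend on the gene lengths used, 941 bases for ISG15 and 2197 for UBE2L6. For USP18 the ratio was -4.72, -4.79 and -4.90 in shNC and -5.76, -5.70 and -5.56 in shScamp1, a difference of -0.87. The differences were -1.41 for HERC5, -1.40 for UBA7 and -1.01 for ISG20, and the groups did not overlap for any of these 5 genes (exact two-sided permutation test, p = 0.1 each, the smallest that 3 against 3 can give, 0.12 adjusted over 6 ratios). The HERC6 ratio differed by -0.19 and overlapped, as it was -4.54, -4.61 and -4.67 in shNC against -4.96, -4.45 and -4.998 in shScamp1 (exact permutation p = 0.4). That overlap rests on shScamp1 replicate 2. Without it the groups were apart with a HERC6 difference of -0.37, and leaving out each other library gave -0.22 to -0.09. A pseudocount of 1 gave -0.35. For the other genes the difference without shScamp1 replicate 2 was -1.63 for HERC5, -1.28 for UBE2L6, -0.86 for USP18, -1.43 for UBA7 and -0.92 for ISG20. The UBA7 difference moved from -1.74 to -1.17 with the pseudocount, since its level is near the pseudocount itself.

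**Figure D3:**
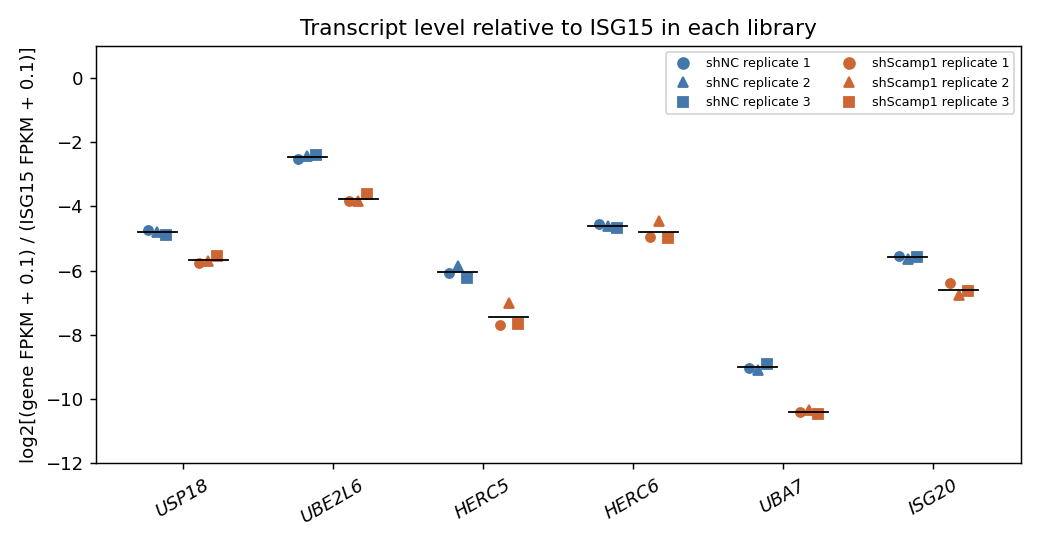
Log2 ratio of each gene's FPKM + 0.1 to ISG15 FPKM + 0.1 in each library, with group means as black bars. The shScamp1 points lie below the shNC points for USP18, UBE2L6, HERC5, UBA7 and ISG20, and overlap them for HERC6, where shScamp1 replicate 2 is the highest.

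Other ubiquitin-like modifiers use separate enzyme chains, and their transcripts give a comparison for level and change. In shNC cells ISG15 (119 to 123 FPKM) lay below the ubiquitin gene RPS27A (221 to 226 FPKM) and above UBB (60.8 to 67.0 FPKM), SUMO2 (86.9 to 88.3 FPKM), SUMO3, NEDD8 and UFM1. In shScamp1 cells its lowest library (405 FPKM) was above the highest library of RPS27A (192 FPKM), the next of the modifier genes compared. At the E1 step the order was the opposite. UBA7 did not exceed 0.241 FPKM in any library, while the ubiquitin E1 UBA1 was at 59.5 to 66.7 FPKM over both groups and UBA3, a subunit of the NEDD8 E1, at 5.71 to 8.97 FPKM. UBE2L3, the E2 most similar to UBE2L6, was at 38.1 to 38.9 FPKM in shNC and 33.5 to 37.8 FPKM in shScamp1 and did not pass the test (log2 fold change -0.10, adjusted p = 0.395 by limma).

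**Figure D4:**
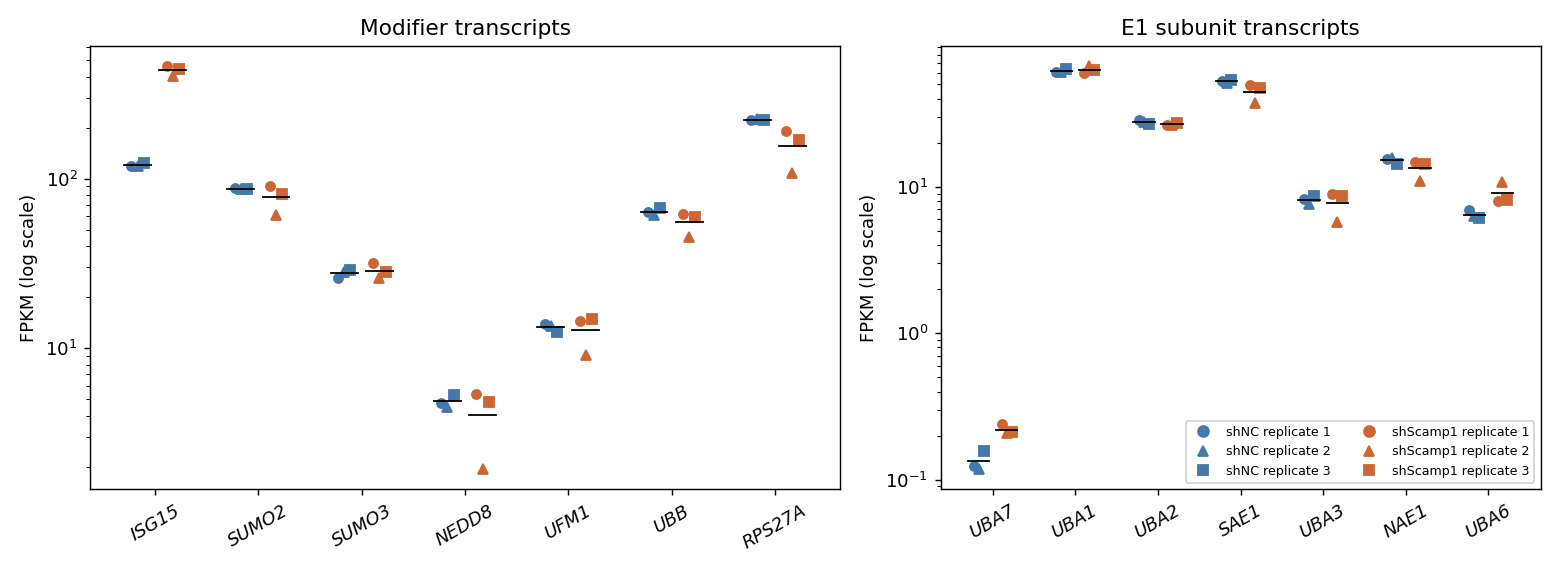
FPKM (log axis) of modifier transcripts (left) and E1 subunit transcripts (right) in each library, with group means as black bars. ISG15 lies between SUMO2 and RPS27A in shNC and above every other modifier shown in shScamp1, and UBA7 lies below the 6 other E1 subunits shown in both groups.

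Of all genes tested, limma called 14.0% at an adjusted p under 0.05, 30.7% were at an unadjusted p under 0.05, and voom called 19.0%, against which the list counts are to be read. The SUMO genes gave no call, 0 of 15 in limma at an adjusted p under 0.05, with 2 at an unadjusted p under 0.05 and 1, lower, with voom on recovered reads. Of the 9 NEDD8 genes, limma likewise called 0, with 1 at an unadjusted p under 0.05 and 0 with voom, and 1 rose without shScamp1 replicate 2. In the UFM1 chain, UFL1, its ligase, rose (1 of 7, log2 fold change 0.72, adjusted p = 0.00206 by limma). Without shScamp1 replicate 2, 4 of the 7 rose, in a fit in which 14.9% of all genes rose. FAT10 (UBD) itself had 0 reads in all libraries. Its E1 UBA6 and E2 UBE2Z did not pass (0 of 2 in limma and in voom, with 2 at an unadjusted p under 0.05), but both rose without shScamp1 replicate 2. Of 4 core ubiquitin genes limma called 0, with 1 at an unadjusted p under 0.05 and 0 with voom. That gene was RPS27A, which encodes ubiquitin fused to a ribosomal protein (log2 fold change -0.56, adjusted p = 0.134 by limma), and it fell without shScamp1 replicate 2 (-0.31, adjusted p = 0.0131).

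Further factors known to act on ISG15, namely the ligases TRIM25 and ARIH1, the E2s UBE2E1 and UBE2E2 and the proteases USP5, USP14, USP16 and USP21, gave 0 of 8 calls in limma, with 3 at an unadjusted p under 0.05 and 1 with voom. TRIM25, itself an interferon-induced gene, was at 18.6 to 20.4 FPKM in shNC and 23.2 to 28.4 FPKM in shScamp1 (log2 fold change 0.37, adjusted p = 0.0503 by limma). It passed without shScamp1 replicate 2 (0.28, adjusted p = 0.0123), as did USP5. Of the other HERC genes HERC3 rose, from 1.32 to 1.46 FPKM in shNC to 2.47 to 2.72 FPKM in shScamp1 (log2 fold change 0.85, adjusted p = 0.00397 by limma). HERC1, HERC2 and HERC4 did not pass. The ISG20 relatives ISG20L2 and AEN had log2 fold changes of -0.17 and -0.22 and did not pass (0 of 2 in limma, with 1 at an unadjusted p under 0.05 and 1, lower, with voom).

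The signalling chain from the interferon receptors to the genes above was examined next, since it is the known inducer of the system. Of 14 listed genes 11 were tested and 4 rose, against 8.82% of all genes. STAT2, a transcription factor activated downstream of the receptors, was at 4.97 to 5.12 FPKM in shNC and 11.0 to 12.4 FPKM in shScamp1. IRF7, the IRF that amplifies interferon production, was at 4.54 to 5.09 FPKM in shNC and 12.2 to 14.1 FPKM in shScamp1. Both were differentially expressed, with log2 fold changes of 1.197 and 1.42 (adjusted p = 0.000510 and 0.000547 by limma). The receptor chains IFNAR1 and IFNLR1 rose by 0.78 and 0.76 on the log2 scale. Their partner chains IFNAR2 and IL10RB, at no more than 23 and 17 reads per library, were too low to test. Overlapping genes, which can affect counts, were looked up for the members only and not for the genes of the lists.

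IRF9, the DNA-binding partner of STAT2, was at 0.680 to 0.815 FPKM in shNC and 0.982 to 1.32 FPKM in shScamp1 and did not pass (log2 fold change 0.52, adjusted p = 0.111 by limma). The kinases JAK1 and TYK2 had log2 fold changes of 0.12 and -0.04 and IRF3 of -0.21, none of which passed. IRF1 (0.46) and IRF2 (0.35) passed when shScamp1 replicate 2 was left out, which brought the count to 6 of 11, in a fit in which 14.9% of all genes rose. The feedback inhibitor SOCS3 had the lowest value of the list at -1.12 and did not pass (adjusted p = 0.0960 by limma). It was called lower with voom on recovered reads (-1.38, adjusted p = 0.0333) and in limma on protein-coding genes alone (adjusted p = 0.0363), and was not called with a pseudocount of 1 (-0.47, adjusted p = 0.0641) or without shScamp1 replicate 2 (-0.77, adjusted p = 0.0572). Over the 16 other settings that kept it the adjusted p ran from 0.0333 to 0.266.

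Interferon transcripts were scarce. Of 21 ligand genes, 9 had 0 reads in all 6 libraries, and IFNB1 did not exceed 1 read. IFNA1 had 1, 2 and 6 reads in shNC and 8, 9 and 9 in shScamp1, and IFNL1 had 1, 1 and 0 against 12, 0 and 5. The only ligand tested was IFNE, an epithelial type I interferon, at 22, 37 and 26 reads in shNC and 55, 69 and 75 in shScamp1. It rose by 1.34 on the log2 scale (adjusted p = 0.00942 by limma).

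**Figure D5:**
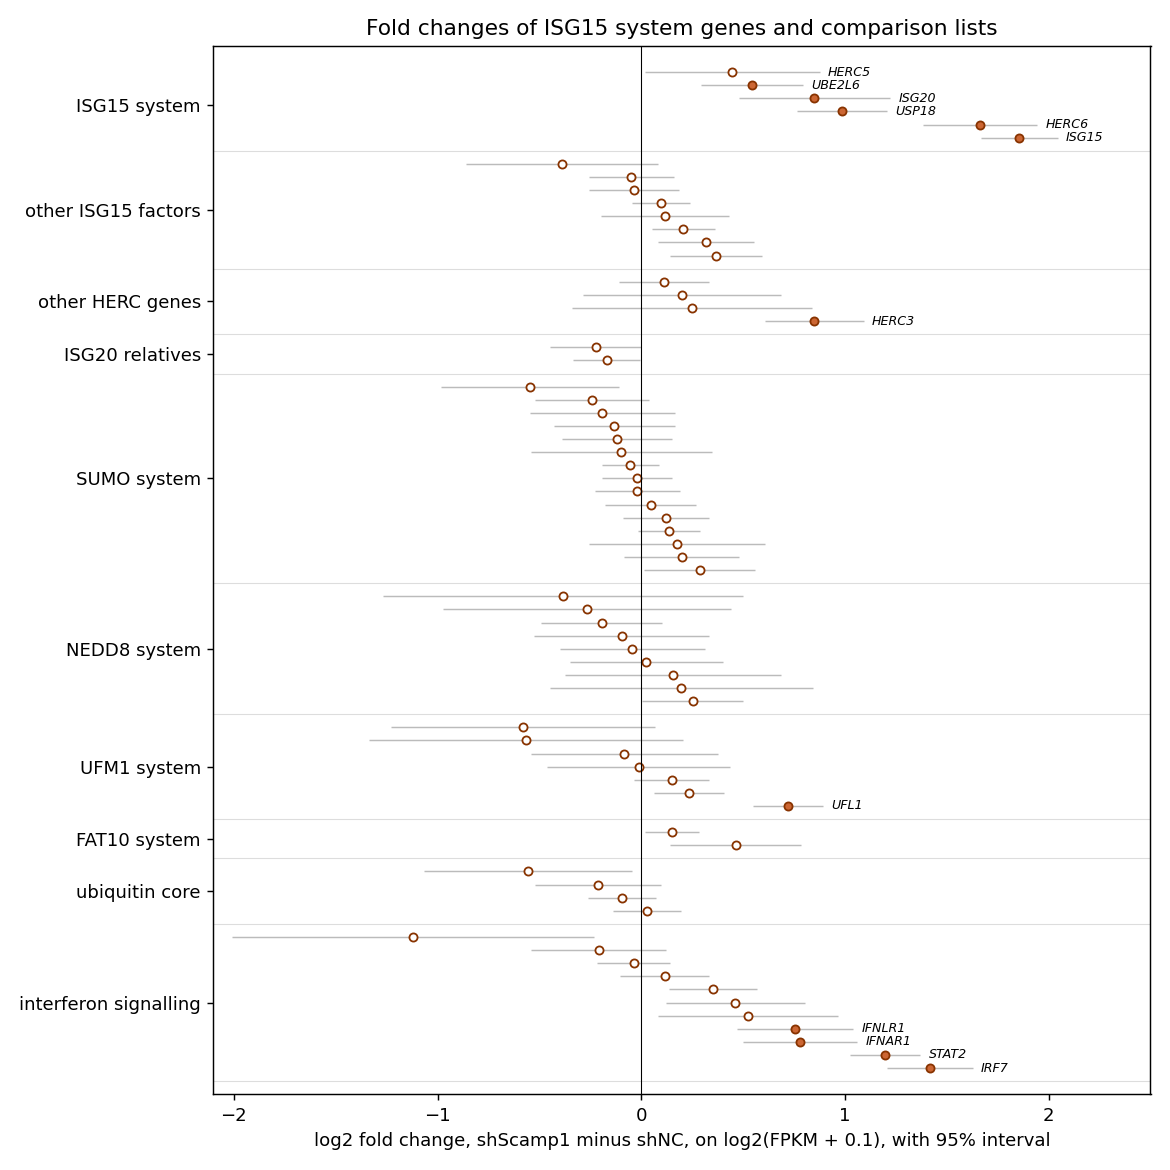
Log2 fold change with its 95% interval for each tested gene of the ISG15 system and of 9 comparison lists (interferon ligands not plotted), filled where the adjusted p was under 0.05. ISG15 and HERC6 lie farthest to the right at 1.86 and 1.66, IRF7 and STAT2 follow at 1.42 and 1.197, and the SUMO and NEDD8 genes lie on both sides of 0.

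The genes whose 6 values followed ISG15 most closely were sought among 6573 protein-coding genes at 5 FPKM or more on average, by Euclidean distance of log2(FPKM + 0.1) after subtraction of the shNC mean. The nearest were NTN4 (distance 0.13), F3 (0.17), AOC1 (0.20), GRHL3 (0.30) and CST6 (0.31). NTN4, a laminin-related secreted protein, had means of 7.80 ± 0.423 FPKM in shNC and 27.9 ± 0.960 FPKM in shScamp1 (SD, n = 3 each). F3, the tissue factor that starts coagulation, had means of 12.5 ± 0.492 and 47.8 ± 5.43 FPKM. AOC1, a diamine oxidase, GRHL3, an epithelial transcription factor, and CST6, a cystatin, had log2 fold changes of 1.81, 1.73 and 1.83. Likeness over 6 libraries in 2 groups reflects a similar fold change between the groups and little else.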

How the data were processed

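Per the submitters' processing notes, reads were handled with HISAT2 2.0.5, featureCounts 1.5.0-p3 and DESeq2 1.20.0 on hg38. The authors deposited FPKM per gene and library, with gene lengths. FPKM multiplied by length and divided by 1 constant per library, the value of a single read, gave whole reads (within 0.01) for 100% of values, and showed that the authors' FPKM already contain a median-of-ratios scaling. Gene coordinates of the table equalled GENCODE 29.

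Expression was compared in R 4.3.3 with limma 3.58.1 (lmFit, eBayes with trend) on log2(FPKM + 0.1), a scale that understates changes of low genes, for the 15556 genes that averaged 0.5 FPKM or more. These hold 99.5% of reads. Benjamini-Hochberg adjustment covered all of them. "Rose" and "fell" mean an adjusted p under 0.05. Tables and figures were made in Python 3.11.15. The members and lists were chosen with earlier results of these data known. Named were the members, SCAMP1, differentially expressed and defining genes of each list, and the 5 genes nearest to ISG15. Others, such as HERC3, UFL1 and TRIM25, were chosen after their values were seen. Alternatives covered pseudocount, filter, scaling, trend, voom on recovered reads, biotype, replicate block and each library left out. Removal of a gene-length trend was added after seeing the data. Promoter sequences are from RefSeq. Protein sequences were not used here. Some genes of the lists are not reported here, and counts and sums leave them out.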

Additional observations from a re-analysis of the deposited data

How the results depend on the processing

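ISG15, HERC6 and USP18 kept their direction and their call at an adjusted p under 0.05 (limma) in all 17 other settings, and HERC5 was called in none. USP18 passed a log2 fold change of 1 in 5 of them. UBE2L6 lost its call in 6 and ISG20 in 4, so that leaving out 1 library gave 3 to 5 members with an adjusted p under 0.05 and 2 to 3 differentially expressed. Over all genes, leaving out 1 library gave 817 to 4374 genes with an adjusted p under 0.05, the highest without shScamp1 replicate 2, and 364 to 540 differentially expressed genes. With that library left out and a gene-length trend removed there were 4547. A pseudocount of 1 gave 248 differentially expressed genes. Of called genes 63.0% were higher, but 47.3% with scaling to total reads and 44.0% with voom, in which the 5 members kept their call. SCAMP1 stayed between -2.92 and -2.29 on the log2 scale. The causes were not tested.

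The groups share replicate numbers. Deviations of same-numbered libraries correlated across genes with -0.04, 0.03 and 0.07, so the numbers were not taken to pair the samples. With the replicate block, 958 genes and 4 members had an adjusted p under 0.05 (UBE2L6, 0.0508), and 389 genes were differentially expressed. Depth limits UBA7 most, at 9 to 16 reads per library.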

Other observations

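The ligase genes HERC5 and HERC6 lie in a cluster on chromosome 4, and genes within 250 kb of each member were read beside it. Around HERC5, 3 of 6 tested neighbours rose, against 8.82% of all genes. They were HERC6, itself of the ISG15 system, HERC3 (0.85 on the log2 scale) and PPM1K, a mitochondrial phosphatase (0.69, adjusted p = 0.0192 by limma). PYURF (-0.39), NAP1L5 (0.12) and FAM13A (-0.28) did not pass. Outside this cluster 1 of 31 tested neighbours of ISG15 and 1 of 12 of UBE2L6 rose, and 2 and 1 fell. Limma called 0 of 4 near USP18 and 0 of 5 near ISG20, with 0 and 1 at an unadjusted p under 0.05 and 0 with voom for either. Of 9 near UBA7, RBM6 fell (-0.40, adjusted p = 0.0322 by limma). These neighbours were named after their values were seen.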
